A study of Mus musculus with 2 samples.

Results

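The cells described here are CD4 T cells, sorted from the visceral fat of mice, that carried transcripts of Bcl2a1, an inhibitor of apoptosis, together with transcripts of the regulators Bhlhe40, Nfkbid, Gadd45b, Nr4a3, Kdm6b or Sytl3. Cells were chosen by their own UMI counts of 12 genes: a member held at least 1 unique molecular identifier (UMI, 1 counted molecule) of Bcl2a1b or Bcl2a1d and at least 1 UMI of at least 2 of those 6 genes. It also had to hold 0 UMIs of Il4, Il1rl1, Foxp3 and Klrk1, which mark type 2 helper cells, regulatory T cells and cells with a natural killer receptor. Of 13191 cells kept after filtering, 1664 were members, 1106 of 6853 in the CD27_KO library and 558 of 6338 in the WT library. The working name for these cells, activated cells with Bcl2a1 and Bhlhe40, is set beside the data further on.

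The 2 libraries came from CD27-/- mice (CD27_KO) and from wild-type mice (WT). CD27, a relative of the TNF receptors, gives T cells a costimulatory signal. Both libraries carry the strain entry C57BL/6 and no separate genotype entry, and the titles alone give the groups. TCRb+ CD4+ cells were obtained by flow sorting of the stromal vascular fraction of pooled fat, which is the cells that remain once adipocytes are removed. The protocol gives 10 pooled mice, and whether that is per genotype is unclear. No source used here states the mice's age or which part of Cd27 was deleted. The design text also describes crosses with a CD70 transgene driven from CD11c, which are not among these samples. The protocol entry and the design text name different versions of the 3′ droplet kit.

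With 1 library per group there was no test between CD27_KO and WT, and none is reported. Intervals are exact 95% intervals that cover counting error alone, as if UMIs were independent, and understate the error where a few cells hold most UMIs of a gene. The CD27_KO library held 6893 barcodes and 20191704 UMIs, and the WT library 6398 barcodes and 16628623 UMIs. The libraries shared 12 barcodes, of which 1 belonged to a member, in a single library. Transcripts of at least 2 of 8 T cell genes were seen in 98.9% of members in the CD27_KO library and in 98.9% in the WT library. Cd27 itself (chromosome 6, 125232622 to 125237010, minus strand, mm10) had 4 UMIs in CD27_KO members, against 229 UMIs in WT members.

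Bcl2a1 proteins belong to the BCL2 family and hold back cell death in activated lymphocytes, where their genes are classical targets of the transcription factor NF-kB. Several of the 6 further genes respond early to antigen receptor signals. Nfkbid encodes an atypical nuclear inhibitor of the NF-kB family, Nr4a3 a nuclear receptor induced through the T cell receptor, and Gadd45b a stress-induced regulator of MAP kinase signalling. Bhlhe40 encodes a repressor that supports cytokine production by effector and tissue-resident T cells, Kdm6b a demethylase of histone H3, and Sytl3 a synaptotagmin-like protein of vesicle traffic.

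The Bcl2a1 genes are near-identical copies on chromosome 9. Over the last 500 bases of the transcript, Bcl2a1b and Bcl2a1d were 99.4% identical, and Bcl2a1a was 98.4% identical to Bcl2a1b, so the counts of single copies are uncertain while their union is less so. Bcl2a1b lies at 89199209 to 89207827 on the plus strand and Bcl2a1d at 88723285 to 88731914 on the minus strand (mm10). The promoters below, from RefSeq (GRCm38.p6), are shown because these genes chose the cells and were seen together. Each window runs from 250 bases before to 50 bases after an annotated start, 5′ to 3′ on the gene's strand. Capitals mark matches to a loose form of the NF-kB motif (GGG, any 5 bases, then CC), on either strand and with overlapping matches joined. The Bcl2a1b window is chr9:89199023-89199322 (plus), the Bcl2a1d window chr9:88731801-88732100 (minus) and the Nfkbid window chr7:30422156-30422455 (plus), the second of 3 annotated starts of Nfkbid.
Bcl2a1b: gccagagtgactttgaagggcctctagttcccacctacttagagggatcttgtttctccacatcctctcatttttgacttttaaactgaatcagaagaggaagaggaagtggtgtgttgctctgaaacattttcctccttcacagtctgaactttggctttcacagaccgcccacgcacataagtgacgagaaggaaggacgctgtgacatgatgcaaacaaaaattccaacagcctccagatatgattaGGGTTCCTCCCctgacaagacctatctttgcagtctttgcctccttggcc
Bcl2a1d: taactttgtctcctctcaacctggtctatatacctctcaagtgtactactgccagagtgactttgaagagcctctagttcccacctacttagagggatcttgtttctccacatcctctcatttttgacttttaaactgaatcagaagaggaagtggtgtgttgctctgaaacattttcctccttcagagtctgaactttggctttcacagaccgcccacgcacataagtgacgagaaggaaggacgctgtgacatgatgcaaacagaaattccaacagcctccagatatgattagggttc
Nfkbid: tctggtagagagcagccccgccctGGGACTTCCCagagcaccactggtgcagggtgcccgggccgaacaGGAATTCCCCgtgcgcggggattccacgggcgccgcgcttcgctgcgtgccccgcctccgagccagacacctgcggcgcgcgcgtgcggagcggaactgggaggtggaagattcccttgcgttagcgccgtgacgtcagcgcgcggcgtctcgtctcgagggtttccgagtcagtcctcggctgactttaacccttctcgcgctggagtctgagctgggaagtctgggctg
The motif is common: 50.8% of the 32851 promoters of this length in the table held a match. Of the 8 genes of the rule, 6 were in the table, and 3 of these (Bcl2a1b, Nfkbid and Sytl3) held a match at 1 start or more. Counted by start, as the 50.8% is, 5 of their 8 starts held a match, and the difference was not tested. The Bcl2a1b and Bcl2a1d windows aligned with an offset of 50 bases at 96.5% identity over 256 aligned bases. The Bcl2a1b match starts at base 251 of its window, just past the annotated start. The last 6 bases of the Bcl2a1d window equal the first of that match, and the rest of the stretch lies past its end. No binding was measured, and a match is a description of the letters only.

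The first question was what these cells are made of. Both Bcl2a1b and Bcl2a1d were seen in 44.8% of CD27_KO members and 38.0% of WT members, and only Bcl2a1d in 8.95% and 11.8%. Exactly 2 of the 6 further genes were seen in 467 CD27_KO members (42.2%) and 280 WT members (50.2%). At the other end, 24 CD27_KO members and 8 WT members held all 6. Bhlhe40 was seen in 60.8% of CD27_KO and 47.7% of WT members, Sytl3 in 59.0% and 49.6%, and Gadd45b in 56.1% and 61.6%. Nr4a3 was the least often seen of the 6, in 32.3% of CD27_KO and 33.2% of WT members. These shares follow from the rule and are given as a description.

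The second question was how often such cells occurred in each library. Members were 16.1% of CD27_KO cells (interval 15.3 to 17.0) and 8.80% of WT cells (8.12 to 9.53), a ratio of 1.83 (1.65 to 2.03). Because a UMI is more easily seen in a deeper cell, the rule was repeated on cells thinned to 1300 UMIs each. Members were then 12.2% of 6798 CD27_KO cells and 7.30% of 5791 WT cells, a ratio of 1.67 (1.48 to 1.88), with 55 CD27_KO and 547 WT cells left out as too shallow. The ratio was between 1.45 and 2.47 when the cells were cut by UMIs per cell into 5 bins of like size.

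**Figure D1:**
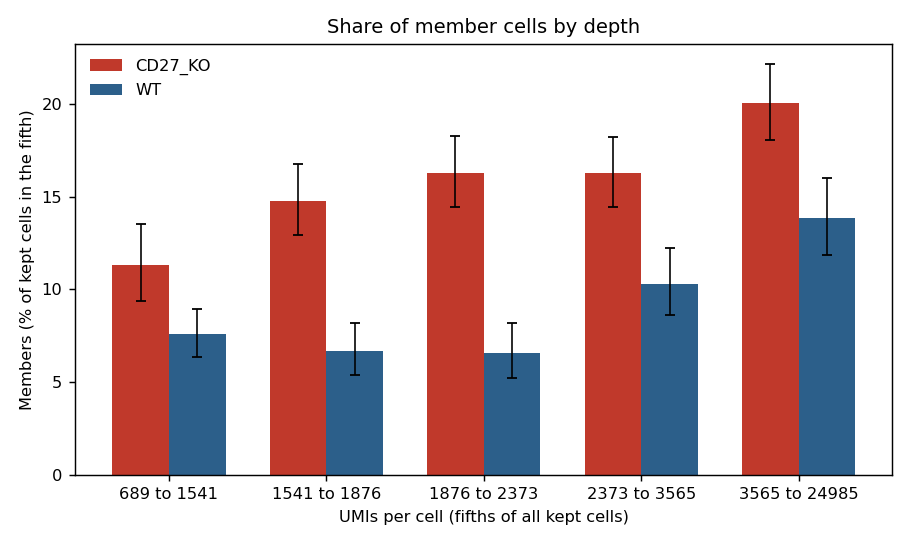
Share of member cells (%, y axis) among kept cells in each of 5 bins of UMIs per cell (x axis), with CD27_KO in red and WT in blue and exact 95% binomial intervals as bars. CD27_KO is above WT in every bin, from 11.3% against 7.57% in the shallowest to 20.04% against 13.8% in the deepest.

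Both positive conditions of the rule were met more often in CD27_KO. Bcl2a1b or Bcl2a1d was seen in 64.2% of CD27_KO cells and 49.3% of WT cells, a ratio of 1.30 (1.24 to 1.36). At least 2 of the 6 genes were seen in 48.0% of CD27_KO and 34.3% of WT cells, and both conditions held in 2750 CD27_KO cells (40.1%) and 1736 WT cells (27.4%). Of these, 1644 CD27_KO cells (59.8%) and 1178 WT cells (67.9%) carried at least 1 of the 4 lineage transcripts and so were not members. The lineages concerned differed between the libraries. Il4, a type 2 cytokine, was seen in 18.7% of CD27_KO cells with both positive conditions and 5.36% of such WT cells. Foxp3, the regulatory T cell factor, was seen in 7.02% of these CD27_KO cells and 24.0% of these WT cells, while Il1rl1, the IL-33 receptor, was seen in 51.6% and 57.8%. Among cells with none of the 4 transcripts, members were 25.1% in CD27_KO and 12.6% in WT, a ratio of 1.99 (1.79 to 2.21). This denominator leaves out only cells in which such a transcript was seen, so differences in lineage can remain. On thinned cells the regulatory T cell factor gene Ikzf2 was seen in 6.61% of CD27_KO and 18.6% of WT members. Counts of cells in a sort cannot tell more cells of a kind from fewer cells of other kinds.

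The third question was what the 6 genes track among Bcl2a1-positive cells. Cells with Bcl2a1b or Bcl2a1d and none of the 4 lineage transcripts were ordered by how many of the 6 genes were seen. Nfkbia, which encodes the main inhibitor of NF-kB and is itself a target of it, had 260, 397, 649, 1000 and 1416 CPM (its summed UMIs as a share of all UMIs of the same cells, on the usual CPM scale) in CD27_KO cells with 0, 1, 2, 3 and 4 or more of the genes. In WT cells Nfkbia had 221, 348, 648, 917 and 1459 CPM. The values climbed at every step in both libraries, and the 2 libraries lay close together. The step from 1 gene, just outside the rule, to 2 genes, just inside it, separated 681 from 467 CD27_KO cells and 486 from 280 WT cells.

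The same order held for other genes of these pathways. Nfkbiz, another atypical inhibitor of the family, had 60.0 CPM with none of the 6 genes and 348 CPM with 4 or more in CD27_KO, against 55.6 and 312 CPM in WT. Tnfaip3, which encodes the ubiquitin-editing enzyme A20, had 343 and 899 CPM at these ends in CD27_KO, against 323 and 782 CPM in WT. Nr4a1, induced by T cell receptor signalling, had 55.9 and 296 CPM in CD27_KO, against 67.3 and 431 CPM in WT. The early activation marker Cd69 had 223 and 455 CPM in CD27_KO, against 214 and 402 CPM in WT. Ifng, the type 1 cytokine, had 90.4 and 282 CPM in CD27_KO, against 88.5 and 196 CPM in WT. Each of these genes was higher with 4 or more genes than with none in both libraries. Klf2, a factor of quiescent and recirculating T cells, ran the other way in CD27_KO, with 288 CPM at the low end and 131 CPM at the high end, and had 435 and 300 CPM in WT without a steady order between them.

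Depth moved with this order, since the median was 1878 UMIs per cell with none of the genes and 2621 with 4 or more in CD27_KO, against 1735 and 2663 in WT. In a window of 1500 to 3000 UMIs, chosen after the data were seen, Nfkbia still had 249 and 2211 CPM at these ends in CD27_KO, against 227 and 2441 CPM in WT. The summed level of 20 dissociation and heat shock genes also climbed, with 6074 CPM for none of the genes and 8287 CPM for 4 or more in CD27_KO, against 6070 and 8468 CPM in WT. The part of tissue handling in the order was not tested.

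**Figure D2:**
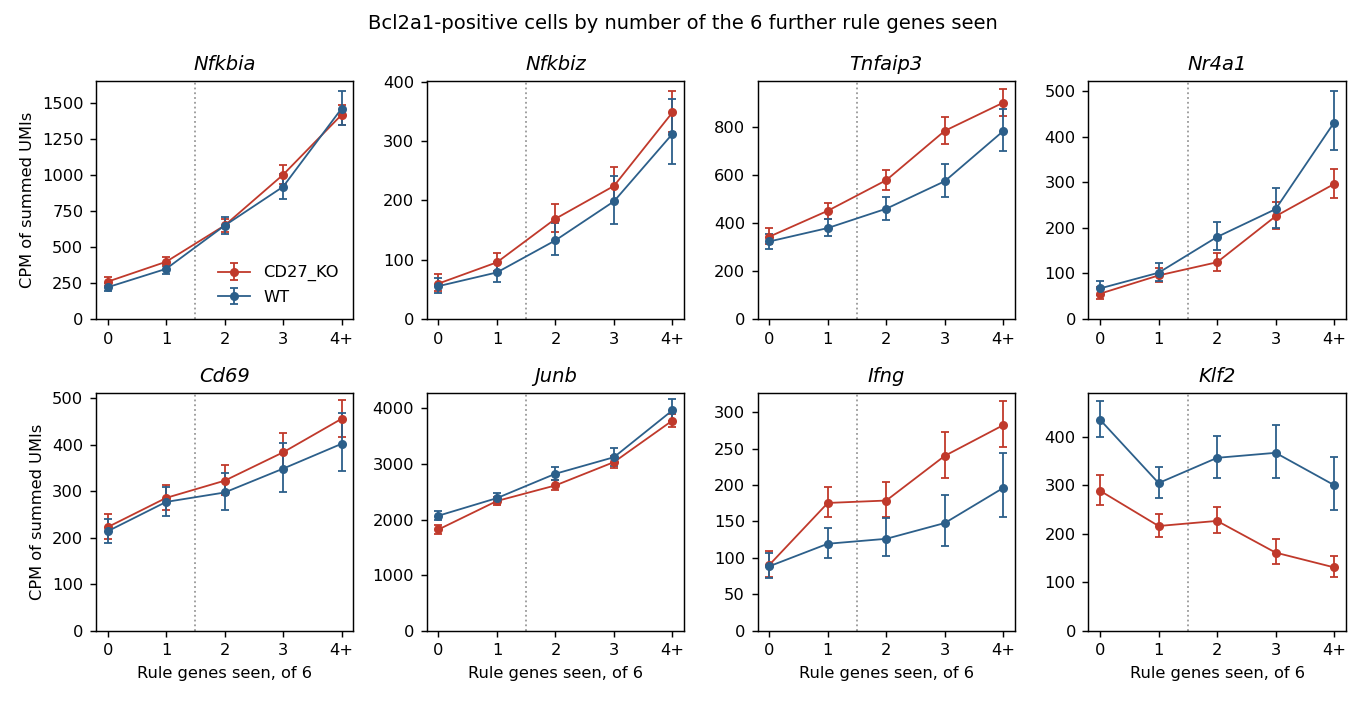
CPM of 8 genes (y axes, linear) in Bcl2a1-positive cells without the 4 lineage transcripts, by how many of the 6 further rule genes were seen (x axis), with CD27_KO in red, WT in blue and exact Poisson 95% intervals; cells right of the dotted line are members. Nfkbia, Nfkbiz, Tnfaip3, Nr4a1, Cd69, Junb and Ifng climb from left to right in both libraries and Klf2 does not.

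Members were then compared with their nearest neighbours, the 1262 CD27_KO and 1113 WT cells that were Bcl2a1-positive and free of the 4 lineage transcripts but held fewer than 2 of the 6 genes. The rule separates these cells from members, so the comparison is a description. At a threshold of 1.5-fold in both libraries, 65 of 4458 genes were higher in members (1.46%), 59 of them not used by the rule, and 2 of 2920 were lower (0.0685%). The 2 lower genes were the T cell kinase gene Txk, at 108 CPM in CD27_KO members and 172 CPM in their neighbours, and the gene model BE692007. They, and the genes named in this comparison, were picked after their values were seen.

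Genes of NF-kB feedback were among those higher in members. Of 19 measured genes of a list of NF-kB subunits, inhibitors and feedback, 11 were at least 1.5-fold higher in members in both libraries and 1 was lower, against 1.88% and 0.334% of all genes with at least 20 UMIs. The median log2 ratio of the list was 0.71 in CD27_KO and 0.71 in WT, and that of all genes 0.01 and 0.05. Nfkbia had 1011 CPM in CD27_KO members and 338 CPM in neighbours (log2 1.58, interval 1.48 to 1.69), and 929 and 281 CPM in WT (1.73, 1.59 to 1.86). Rel, which encodes the c-Rel subunit, had 114 and 48.8 CPM in CD27_KO, and 145 and 46.9 CPM in WT. Icam1, an adhesion ligand gene and NF-kB target, had 92.9 and 41.4 CPM in CD27_KO, and 65.4 and 27.0 CPM in WT. Traf1, an adaptor of TNF receptors, had 212 and 114 CPM in CD27_KO, and 252 and 118 CPM in WT. The subunit gene Nfkb1 stayed under the threshold in CD27_KO, with log2 ratios of 0.51 there and 0.75 in WT.

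Early genes of the T cell receptor followed, with 9 of 22 higher in both libraries, against 1.88% of all genes with at least 20 UMIs. The list medians were 0.59 in CD27_KO and 0.62 in WT. Nr4a1 had log2 ratios of 1.43 in CD27_KO and 1.64 in WT, the serine kinase gene Pim1 0.95 and 1.12, and the costimulatory receptor gene Tnfrsf4 0.64 and 1.31. Cd69 was below the threshold, at 0.58 and 0.47. Of 13 measured AP-1 and BATF genes 4 were higher, among them Fos and Jun, and of 6 measured chemokine genes 4 were higher. The share of all genes beside these counts was the same 1.88%. Csf2, encoding the cytokine GM-CSF, had 88.4 CPM in CD27_KO members and 4.60 CPM in neighbours, and 90.5 and 22.0 CPM in WT. Csf2 was seen in only 41 CD27_KO and 37 WT members. Areg, encoding the repair factor amphiregulin, had 82.5 and 15.9 CPM in CD27_KO, and 287 and 31.6 CPM in WT. Against all other cells of the library Areg ran the other way. It was lower in members there, with log2 ratios of −1.25 in CD27_KO and −0.76 in WT.

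Of the remaining lists, some had genes past the threshold and some had none. None of the measured genes of the BCL2 family (11), residency (15), recirculation (13), TRAF and CD27 signalling (12), demethylases and polycomb (12), secretory (12) or interferon (9) lists was higher or lower by 1.5-fold in both libraries. By the same count, 3 of 9 GADD45 and p53 stress genes, 3 of 13 cytokine genes, 3 of 15 cell cycle genes and 5 of 19 dissociation and heat shock genes were higher and none was lower, against the same 1.88% of all genes. One gene each was higher of the costimulation and inhibition (13), glycolysis (13) and JAK, STAT and SOCS (15) lists. The dissociation genes included Zfp36, at 300 CPM in CD27_KO members and 89.5 CPM in neighbours, and 277 and 77.7 CPM in WT. The class II genes H2-Aa, H2-Ab1, H2-Eb1 and Cd74 were also higher, but H2-Aa was seen in only 16 CD27_KO and 15 WT members. The type 1 factor gene Tbx21 had log2 ratios of 0.02 in CD27_KO and 0.00 in WT.

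**Figure D3:**
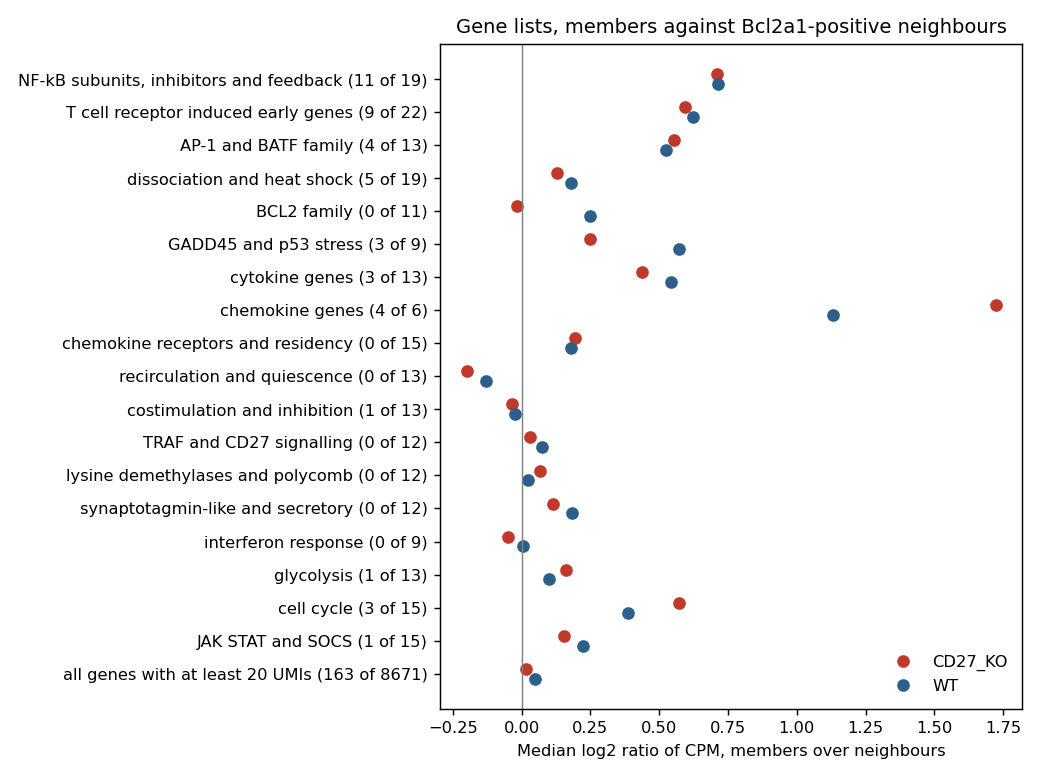
Median log2 ratio of CPM (x axis) of members over Bcl2a1-positive neighbours for 18 gene lists and for all genes with at least 20 UMIs (rows), with CD27_KO in red above WT in blue; brackets give how many measured genes were at least 1.5-fold higher in both libraries. The NF-kB, T cell receptor, AP-1 and chemokine lists lie right of 0.5 in both libraries, and all genes lie at 0.01 and 0.05.

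Members were also set against all other cells of their library. None of 23 measured early genes of the T cell receptor was 1.5-fold higher in members in both libraries, with a list median of −0.09 in CD27_KO and 0.12 in WT. Nfkbia had log2 ratios of −0.08 in CD27_KO and 0.01 in WT, Nr4a1 −0.23 and −0.13, and Cd69 0.04 and 0.17. Of 20 measured NF-kB genes 3 were higher in both libraries and 1 was lower, with medians of 0.12 in CD27_KO and 0.07 in WT. Of 8 measured chemokine genes 2 were higher and 2 lower, with medians of 0.43 and 0.75, against 1.2% higher and 2.96% lower of all genes with at least 20 UMIs. The other cells include the 1644 CD27_KO and 1178 WT cells that met both positive conditions and held a lineage transcript. By the early genes of the T cell receptor, the name activated describes these cells against their Bcl2a1-positive neighbours, while against the rest of the libraries none of those genes passed the threshold.

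In that wider comparison 39 of 8273 genes were at least 1.5-fold higher in members in both libraries (0.471%) and 93 of 8044 were lower (1.16%). These 2 counts rest on unlike filters in the same way as those against the neighbours. The gene ranked first by the smaller of its 2 ratios, and not used by the rule, was Ifng. It had 231 CPM in CD27_KO members and 96.1 CPM in other CD27_KO cells, a log2 ratio of 1.27 (1.14 to 1.39), and 150 and 61.8 CPM in WT, a ratio of 1.28 (1.07 to 1.48). Ifng kept its direction under every alternative, but its smallest nearer ratio was 0.18. Cells with any of the 4 lineage transcripts, 35.6% of CD27_KO and 30.1% of WT kept cells, were among the other cells only. The sizes of type 1 ratios against other cells thus depend in part on that step of the rule. Xcl1, a chemokine gene of type 1 lymphocytes, had 60.8 and 32.2 CPM in CD27_KO, and 92.9 and 33.7 CPM in WT. Serpina3f, a serine protease inhibitor gene, had 40.1 and 21.4 CPM in CD27_KO, and 29.4 and 10.9 CPM in WT. Each of these 3 genes was higher in members in both libraries.

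Of the 18 lists, the cell cycle list had most genes higher, 8 of 16 in both libraries with no gene lower, against 1.2% higher and 2.96% lower of all genes with at least 20 UMIs. The proliferation marker Mki67 had 45.4 CPM in CD27_KO members and 24.3 CPM in other cells, and 22.2 and 11.1 CPM in WT. Pclaf, a partner of the replication clamp, had 85.4 and 38.1 CPM in CD27_KO, and 57.6 and 16.5 CPM in WT. These UMIs came from few cells: Mki67 was seen in 66 CD27_KO and 17 WT members, Pclaf in 50 and 20. Nusap1 and Cks1b, of the mitotic spindle and the cyclin-dependent kinases, were also higher, as was the histone gene Hist1h2ap, whose reads cannot be told from those of its near-identical copies. When the rule was applied to thinned cells, Nusap1, Pclaf, Hist1h2ap, Mki67 and Cks1b were below the other cells in at least 1 library. The class II genes H2-Aa, H2-Ab1 and H2-Eb1 were higher as well, in 12 to 17 members per library. With cells carrying markers of other types left out, H2-Eb1 and H2-Ab1 were lower in members in at least 1 library. Ckb, a creatine kinase gene, had 24.6 and 13.8 CPM in CD27_KO, and 25.8 and 13.8 CPM in WT. Mki67 and Ckb each have a near-identical gene model (Gm44521 and Gm12892) that may share their reads.

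The genes lower in members that the naming rule picked are described next; type 2 helper cells are in part left out by the rule itself. Transcripts of the adipocyte and endothelial gene Fabp4 came to 1 UMI in CD27_KO members and 747 in other cells, and to 1 and 772 in WT. The matrix genes Col3a1 and Sparc and the complement gene C3 had 0 UMIs in members of both libraries. Against a floor of 3 counts per library, Col3a1 was at least 7.16-fold lower in CD27_KO members and at least 11.6-fold lower in WT members. Dcn, Slpi and Retnla also had at most 8 UMIs in the members of either library. The type 2 cytokine genes Il5 and Il13 had 3.56 and 0.890 CPM in CD27_KO members, against 21.6 and 13.8 CPM in other CD27_KO cells. In WT, Il5 had 1.20 CPM in members and 14.0 CPM in other cells, and Il13 3.00 and 10.6 CPM. Slc7a8, an amino acid transporter gene, Irs2, an insulin receptor substrate gene, and Ccdc184 followed the same direction in both libraries. Without the step that leaves out the 4 lineage transcripts, Il5, Il13, Slc7a8, Irs2 and Ccdc184 were higher in members in at least 1 library.

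The lineage of the members was read from single transcripts at equal depth, with each cell thinned to 1300 UMIs. Naive-like cells (Ccr7 and Lef1 seen, no Bcl2a1), with median depths of 2207.5 UMIs in CD27_KO and 2029 in WT, gave the level of background. Members' own medians were 2373.5 and 2316.5 UMIs. Ccl5, a type 1 effector chemokine gene, was seen in 54.1% of CD27_KO members and 53.8% of WT members, against 5.13% and 5.0% of naive-like cells (unthinned 60.0% and 57.5% of members). Ifng was seen in 17.1% of CD27_KO members (14.9 to 19.5) and 13.8% of WT members (11.0 to 17.1), and in 28.6% and 20.8% before thinning. It was seen in 8.40% of other CD27_KO cells and 6.19% of other WT cells. Among naive-like cells Ifng was seen in 0 of 156 CD27_KO cells, which by a floor of 3 counts allows a share of up to 1.92% of cells with a UMI at this depth, and in 0.556% of WT cells. Before thinning, 1.28% of CD27_KO and 1.34% of WT naive-like cells held an Ifng UMI. At least 2 of 6 type 1 helper markers were seen in 43.7% of CD27_KO members and 48.1% of WT members, against 32.1% and 30.3% of other cells. Against their Bcl2a1-positive neighbours, Ccl5 was not higher in members, with 2345 CPM in members and 2933 CPM in neighbours in CD27_KO (log2 −0.32), and 3446 and 3580 CPM in WT (−0.06). Ifng was above the neighbours by log2 0.74 in CD27_KO and 0.54 in WT, the second short of the threshold.

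Type 2 and follicular transcripts were read in the same way, with Il4 and Il1rl1 at 0 by the rule. Gata3, shared by type 2 helper and some regulatory cells, was seen in 26.4% of members (23.8 to 29.1) and 29.8% of other cells (28.6 to 31.0) in CD27_KO, and in 24.7% of members (21.1 to 28.6) and 19.4% of other cells (18.4 to 20.5) in WT. It was thus less frequent in members than in other cells in CD27_KO and more frequent in WT, and before thinning it was seen in 44.2% and 44.0% in CD27_KO and in 37.1% and 28.9% in WT. Bcl6, the follicular helper factor gene, was seen in 0.543% of CD27_KO members and 0.958% of WT members. Several transcripts of regulatory, memory and repair cells were less frequent in CD27_KO members. Ikzf2, a regulatory T cell factor gene, was seen in 6.61% of CD27_KO members (5.21 to 8.24) and 18.6% of WT members (15.3 to 22.2), although Foxp3 was 0 in all members by the rule. Ctla4, an inhibitory receptor gene, was seen in 11.9% and 22.2%, near or above the 11.5% and 10.6% of naive-like cells. Slamf6, a marker of memory-like cells, was seen in 6.15% and 13.4%, and in 28.2% and 25% of naive-like cells. Areg was seen in 4.34% of CD27_KO members and 11.5% of WT members. The other cells differed in the same direction, with Ikzf2 in 9.50% of CD27_KO and 21.0% of WT cells.

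Activation transcripts were compared at equal depth as well. Cd69 was seen in 33.8% of CD27_KO members and 33.9% of WT members, a ratio of 0.996 (0.830 to 1.20), and Nr4a1 in 22.4% of each, a ratio of 0.997 (0.797 to 1.25). Among naive-like cells Cd69 was seen in 26.9% in CD27_KO and 13.3% in WT, and Nr4a1 in 4.49% and 6.67%. Other cells held Cd69 in 31.0% and 24.5%, and Nr4a1 in 18.2% and 18.3%. Cd40lg, the ligand with which helper T cells engage antigen-presenting cells, was seen in 54.3% and 43.1%, a ratio of 1.26 (1.08 to 1.47). Cxcr6, a receptor of tissue-resident T cells, was seen in 25.4% and 16.3%, a ratio of 1.56 (1.22 to 2.01). Both genes differed in the same direction outside the members. Other cells held Cd40lg in 44.0% in CD27_KO and 29.5% in WT, and Cxcr6 in 22.6% and 12.5%. In members Il2 was seen in 13.1% and 13.6%, and Tnf in 7.60% and 9.0%. Cd69 and Nr4a1 rose with the number of rule genes seen, and the part of the rule in their like shares in members of both libraries was not tested.

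**Figure D4:**
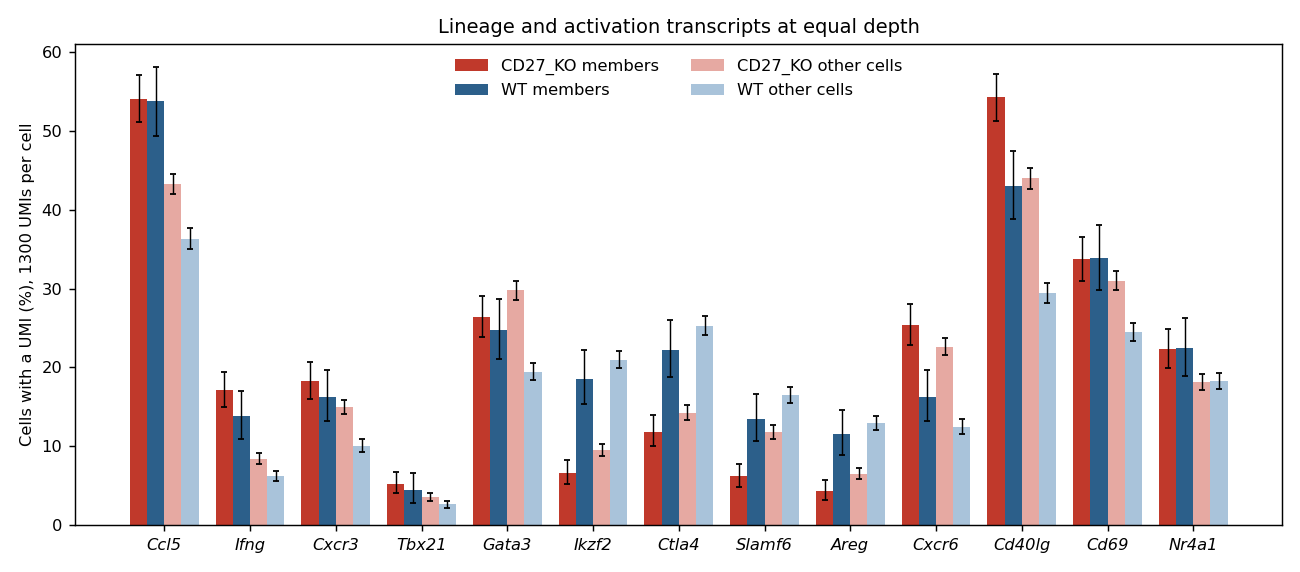
Share of cells with a UMI (%, y axis) after thinning to 1300 UMIs per cell for 13 lineage and activation genes (x axis), in CD27_KO members, WT members, CD27_KO other cells and WT other cells, with exact 95% binomial intervals. Ccl5 and Ifng are higher in members than in other cells, Ikzf2, Ctla4, Slamf6 and Areg are lower in CD27_KO than in WT members, and Cd69 and Nr4a1 are level between the libraries.

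The last question was how members differed between CD27_KO and WT. Of 5388 genes with at least 100 UMIs over the members of both libraries, 357 were at least 1.5-fold higher in CD27_KO members (6.63%) and 107 lower (1.99%). The median gene was shifted by 0.11 on the log2 scale. With ratios centred on it 205 were higher, so that 56.9% of the genes past the threshold were higher, against 76.9% uncentred. CD27_KO members held 3370412 UMIs and WT members 1667942, so a gene higher in CD27_KO reaches the minimum of UMIs more easily. The minimum thus favours the count of higher genes. With no minimum beyond 1 UMI, 1762 of 11297 genes were higher and 1176 lower. Of the 357 higher genes 107 were past the threshold in the same direction in the other cells, and 6 in the opposite direction. Of the 107 lower genes 42 were past it in the same direction and 17 in the opposite one. Over all 5388 genes, 216 were higher and 55 lower in the other CD27_KO cells. The levels of the rule's own genes in members are set in large part by the rule and are given as a description. Their log2 ratios of CPM were 0.15 for Bcl2a1b, 0.06 for Bcl2a1d, −0.10 for Gadd45b, −0.08 for Nr4a3, 0.00 for Kdm6b, 0.31 for Sytl3 and 0.23 for Nfkbid. Bhlhe40 was highest of them at 0.52 (0.36 to 0.67), with 391 CPM in CD27_KO members and 273 CPM in WT members. In other cells the ratio was 0.96 for Bhlhe40, 0.50 for Bcl2a1b, 0.33 for Bcl2a1d and 0.50 for Sytl3. Bhlhe40 lies on chromosome 6 at 108660629 to 108666925, 16.6 Mb from Cd27.

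Among genes with at least 100 UMIs, Cd27 was lowest in CD27_KO members, with 1.19 CPM in CD27_KO and 137 CPM in WT, a log2 ratio of −6.85 (−8.74 to −5.48). Next among such genes was Cxcl2, a neutrophil-attracting chemokine gene, with 159 UMIs in 18 CD27_KO members and 629 UMIs in 47 WT members, or 47.2 and 377 CPM (−3.00). Most of these UMIs sat in few cells, 66 of the 159 in 1 cell, and without the top cell of each library the ratio was −3.59. Areg had 82.5 and 287 CPM (−1.80), Gzmb, encoding granzyme B, 10.1 and 40.2 CPM (−1.99), and the exhaustion-linked factor gene Tox 25.2 and 96.5 CPM (−1.94). Mt1, a metallothionein gene, had 15.1 and 64.8 CPM (−2.10), and Rpgrip1 18.4 and 71.9 CPM (−1.97). Cd9, a tetraspanin gene on chromosome 6 at 125460266 to 125494791 and so close to Cd27, had 14.2 and 51.6 CPM (−1.86). Fam177a had 18.1 and 55.2 CPM (−1.61), with reads that may be shared with the near-identical 1700047I17Rik2. All of these were lower in the other CD27_KO cells too.

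Tcf4 and Tyrobp were also lower, but they are markers of plasmacytoid dendritic and myeloid cells. Tcf4 had 34 UMIs in 24 CD27_KO members and 81 UMIs in 17 WT members (−2.27), and Tyrobp 50 UMIs in 9 and 119 UMIs in 22 (−2.27). At least 2 of 8 dendritic markers were seen in 0.271% of CD27_KO members and 1.34% of WT members at equal depth, and at least 2 of 8 myeloid markers in 0.543% and 1.92%. The summed level was 46.3 CPM in CD27_KO members and 159 CPM in WT members for the dendritic list, and 180 and 270 CPM for the myeloid list, with Csf1r, Adgre1 and Clec9a at 0 in CD27_KO members. With cells that held 2 or more markers of another cell type left out, Tcf4 was 0.42 and Tyrobp −0.56; both genes are themselves among the markers that chose the cells to leave out, so these values are in part set by that choice.

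Samd11 was furthest in the other direction among such genes, with 141 UMIs in 101 CD27_KO members and 4 UMIs in 4 WT members, or 41.8 and 2.40 CPM (4.12, 2.74 to 6.02). The difference was as large in other cells (4.18). Furin, a proprotein convertase gene, had 1126 UMIs in 311 CD27_KO members and 170 UMIs in 87 WT members, or 334 and 102 CPM (1.71, 1.48 to 1.95), and 1.21 in other cells. P2rx7, the ATP receptor gene found on resident T cells, had 137 and 54.0 CPM (1.34, 1.02 to 1.69), with 30.8% of CD27_KO members and 14.0% of WT members holding a UMI. The interferon-inducible GTPase genes Iigp1 and Irgm1 had 39.8 and 43.6 CPM in CD27_KO members and 7.19 and 18.6 CPM in WT members. Birc5 and Prc1, of cell division, had 34.1 and 35.9 CPM in CD27_KO members and 11.4 and 14.99 CPM in WT members. Birc5 was seen in 29 CD27_KO members (2.62%) and 12 WT members (2.15%), and Prc1 in 88 (7.96%) and 21 (3.76%). Inpp5b, Apobr and the RNA-binding gene Ythdc2 had log2 ratios of 1.25, 1.31 and 1.20, against 0.36, 0.74 and 0.03 in other cells. Tmem181a and Lilrb4a had 1.52 and 1.28, with near-identical copies (Tmem181b-ps and Lilr4b) that may share their reads.

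**Figure D5:**
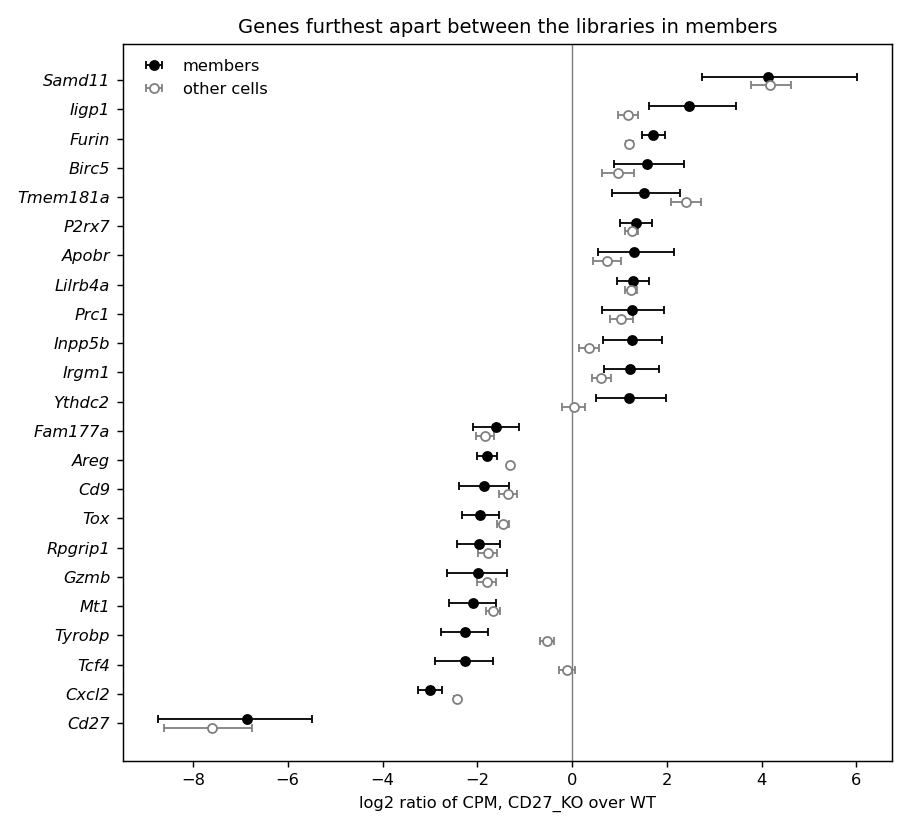
Log2 ratio of CPM, CD27_KO over WT (x axis), for the 12 genes furthest in the higher and 11 of the 12 furthest in the lower direction in members (rows), in members (filled) and in other cells (open), with exact 95% intervals for counting error. Cd27 is at −6.85 in members, Samd11 at 4.12 and Furin at 1.71, and Tcf4 and Ythdc2 lie near 0 in other cells.

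By list, residency and homing genes were higher in CD27_KO members. Of 16 measured genes of chemokine receptors and residency, 7 were at least 1.5-fold higher and 1 lower, against 12.4% and 5.86% of all genes with at least 20 UMIs. The list median was 0.42 in members, 0.37 in other cells and 0.11 over all genes in members. Cxcr6 had 898 UMIs in 496 CD27_KO members and 232 UMIs in 160 WT members (0.94, 0.73 to 1.15). Ccr2, a receptor for recruitment to inflamed tissue, was at 0.71, Ccr4 at 0.83 and the collagen-binding integrin gene Itga1 at 0.85. Prdm1, which encodes the effector factor Blimp-1, was at 0.59. The recirculation and quiescence list ran the other way, with 6 of 14 genes lower and 1 higher, but Cd27 is among the 6. Ccr7, the lymph node homing receptor, had 16 UMIs in CD27_KO members and 69 UMIs in WT members (−3.12), S1pr1, the exit receptor, 418 and 325 UMIs (−0.65), and Klf2 590 and 576 UMIs (−0.98). Satb1 was higher at 0.61. At least 2 of 6 naive markers were seen in 13.5% of CD27_KO members and 18.01% of WT members at equal depth. The part of such cells in the recirculation values was not tested.

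In the interferon response and cell cycle lists more genes were higher than lower in CD27_KO members. Of 12 measured interferon genes 6 were higher and 1 lower, against the same 12.4% and 5.86% of all genes, with a median of 0.61 in members and 0.24 in other cells. Isg15, a ubiquitin-like interferon-induced gene, had 293 UMIs in 182 CD27_KO members and 83 UMIs in 60 WT members (0.80, 0.45 to 1.17). Ifit1 was at 1.20, while Bst2 was lower at −0.59 and Irf7 was at −0.34. Usp18 had 39 UMIs in CD27_KO members and 2 UMIs in WT members. Of 15 cell cycle genes 7 were higher and none lower, with a median of 0.57 in members and 0.84 in other cells. Ube2c had 72 UMIs in 24 CD27_KO members and 9 UMIs in 7 WT members, and Top2a 280 UMIs in 93 and 74 UMIs in 37.

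Cytokine genes went both ways, with 3 of 16 higher and 3 lower, against 12.4% and 5.86% of all genes. Ifng was at 0.63 (0.42 to 0.84), with 780 UMIs in 316 CD27_KO members and 250 UMIs in 116 WT members, and its ratio in other cells was 0.64. Il17a was higher on 24 UMIs that lay in 3 CD27_KO members. Il10, an immune-regulatory cytokine gene, had 6 UMIs in CD27_KO members and 17 UMIs in WT members. Il2 was at −0.10 and Tnf at −0.23. Chemokine genes were lower in 4 of 7 cases and higher in 1: Ccl4 was at −1.09, Xcl1 at −0.61 and Cxcl10 at 0.86, and Ccl5 lay just short of the threshold at −0.56.

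Some inhibitory receptor genes and costimulatory TNF receptor genes were lower in CD27_KO members, and others were within the threshold. Among the latter, Btla had 28.8 CPM in CD27_KO and 33.0 CPM in WT members, and Cd28 had 576 and 507 CPM. Of 15 measured genes of the costimulation and inhibition list 6 were lower and 1 higher, against 5.86% and 12.4% of all genes, with a median of −0.20 in members and −0.30 in other cells. Pdcd1, encoding PD-1, was at −1.21, Ctla4 at −0.66, Cd200 at −0.99 and Tox2 at −2.34, while Cd226, a costimulatory receptor gene, was higher at 0.63. Of 22 early genes of the T cell receptor 6 were lower and 1 higher. The lower ones included the TNF receptor genes Tnfrsf4 at −1.31 and Tnfrsf9 at −2.04 and the factor gene Irf4 at −1.30. Among other early genes Nr4a1 was at −0.30, Cd69 at 0.19 and Dusp2 at 0.00. Cd40lg was at 0.52 and Rgs1, a regulator of chemokine receptor signalling, at 0.40. Although Foxp3 was 0 by the rule, at least 2 of 4 regulatory T cell markers were seen in 7.87% of CD27_KO members before thinning. In WT members that share was 22.4%. The part of such cells in the values of the inhibitory, costimulatory and early genes, and in those of Areg and Il10, was not tested.

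NF-kB genes themselves were close to level between CD27_KO and WT members, in part by the choice of cells. Members were chosen by genes whose number seen tracked Nfkbia, Nfkbiz and Tnfaip3 in both libraries. The comparison of members thus does not describe NF-kB genes over all cells of a library. Against 12.4% higher and 5.86% lower of all genes, of 19 measured genes 1 was higher, Birc3 at 0.59, and 1 lower, Cd83, with 17 UMIs in 8 CD27_KO members and 39 UMIs in 17 WT members. The list median was 0.12 in members, at the shift of all genes. In other cells it was 0.21, with 0 of 19 genes higher and 1 lower, and all genes had a median of 0.17 there. Nfkb1 was at 0.01 (−0.23 to 0.25), Nfkbia at 0.12 (0.03 to 0.21), Relb at 0.00 (−0.45 to 0.46) and Tnfaip3 at 0.38 (0.27 to 0.49). CD27 signals through TRAF adaptors, and of 12 measured genes of that pathway 1 was higher, Tab2 at 0.64, and none lower. Traf2 was at 0.29 (−0.43 to 1.06), Traf5 at −0.04 (−0.71 to 0.66) and Map3k14, the kinase NIK, at 0.51 (−0.04 to 1.08). The ligand gene Cd70 had 2 UMIs in each library's members.

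The remaining lists are read against the same 12.4% higher and 5.86% lower of all genes. Of 11 measured BCL2 family genes Bik was higher at 0.75 and Bid lower at −0.63, each on few UMIs. Bcl2 was at 0.06, Mcl1 at 0.10 and Bcl2l11, the pro-apoptotic gene of Bim, at 0.03. None of 9 measured GADD45 and p53 stress genes, 13 glycolysis genes or 19 dissociation and heat shock genes was past the threshold, and the last list had a median of −0.16. Of 12 demethylase and polycomb genes 3 were higher and none lower, of 13 AP-1 and BATF genes 1 was lower, Batf at −0.68, and of 12 secretory genes 2 were higher and 2 lower. Of 15 JAK, STAT and SOCS genes Socs2 was higher at 0.78 and Stat5a lower at −1.04.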

How the data were processed

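Single-cell 3′ RNA libraries of sorted adipose CD4 T cells, 1 per genotype, were used as the deposited filtered matrices of raw UMI counts, made with Cell Ranger 6.1.1 per the file headers, on mm10 with GENCODE vM21 per the submitters' processing notes; no source used here gives the alignment settings. Barcodes under 500 genes or over 10% mitochondrial UMIs were dropped (40 in CD27_KO, 60 in WT). Doublets were not removed; cells over 3 times the median UMIs were left out in an alternative. UMIs were summed over cells and divided by the cells' total (CPM). A gene was called at a 1.5-fold ratio with at least 100 UMIs and 20 member cells with a UMI. Between libraries the UMIs were summed over both. Against other cells, higher genes needed 100 UMIs over members and those cells in each library. Lower genes needed 100 UMIs in those cells of each library, with no minimum of member cells. List genes needed 20 UMIs over both sides. Intervals were exact conditional binomial, Clopper-Pearson or Poisson (95%). With 1 library per group no test was run. Named genes were the 12 furthest called genes in each direction of the CD27_KO and the all-other-cells comparison, the genes of the rule, and genes of the lists; some of these genes are not reported here. Members and lists were chosen with earlier results of these data known. Python 3.11.15, numpy 2.4.6, pandas 2.3.3, scipy 1.17.1, BLAST 2.17.0 and edlib 1.3.9.post1 were used, and the scripts were tested on simulated data.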

Additional observations from a re-analysis of the deposited data

Results flagged for a closer look

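Spry2, a feedback inhibitor of receptor signalling, differed between the libraries in direction. Its log2 ratio of members over other cells was −1.13 in CD27_KO and 0.81 in WT, on 15 UMIs in 6 CD27_KO members and 39 UMIs in 22 WT members. The difference between the libraries was not tested.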

How the results depend on the processing

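No paired analysis was possible because each group has 1 library, and leaving out a replicate was not run for the same reason. Counting error is the only error measured, and genes seen in few cells are the least certain. Of 252 list medians under alternatives 229 moved little and none changed sign; of 336 CD27_KO over WT gene ratios 1 changed sign, and of 370 ratios of members over other cells 41 did. The cause was not tested in any case.

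The ratio of member shares, 1.83, was 1.41 with at least 1000 genes per cell, 2.13 with at least 3 of the 6 genes, 2.16 with both Bcl2a1b and Bcl2a1d, 1.47 without the 4 lineage transcripts as a condition and 2.06 without Gadd45b, an alternative chosen after seeing the data. The 357 genes higher in CD27_KO members were 234 with at least 3 of the 6 genes, 192 with both Bcl2a1 genes, 214 with the rule on thinned cells, 163 at 200 UMIs, 1762 with no minimum, 205 centred and 190 on thinned sums. The 107 lower genes were 56 with both Bcl2a1 genes, 303 without the lineage condition, 43 at 200 UMIs, 1176 with no minimum and 57 on thinned sums. The 39 genes higher in members than in other cells were 25 at 1000 genes per cell, 249 without the lineage condition, 276 with no minimum, 59 within the members' depth range and 65 against the Bcl2a1-positive neighbours. The 93 lower genes were 172 with both Bcl2a1 genes, 53 without the lineage condition, 59 with the rule on thinned cells, 56 at 200 UMIs, 387 with no minimum, 39 on thinned sums, 55 within the depth range, 2 against the neighbours and 160 against cells that met both positive conditions but held a lineage transcript, the last chosen after seeing the data.

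Values that changed sign are log2 ratios of members over other cells in the library nearer to or past 0. With at least 3 of the 6 genes, H2-Eb1 was −0.18, H2-Ab1 −0.72 and H2-Aa −0.38. With both Bcl2a1 genes, Pclaf was −0.024, H2-Eb1 −0.28, Hist1h2ap −0.46, H2-Ab1 −0.65, Mki67 −0.10 and H2-Aa −0.56. Without the lineage condition, Nusap1 was −0.024, H2-Eb1 −0.091, H2-Ab1 −0.31, Ckb −0.20, H2-Aa −0.39, Il5 2.98, Slc7a8 2.09, Irs2 1.83, Il13 5.49 and Ccdc184 2.56. With cells carrying markers of other types left out, H2-Eb1 was −1.27, H2-Ab1 −0.090 and Retnla 0.27, and Tcf4, itself one of those markers, was 0.42 as CD27_KO over WT. With the rule on thinned cells, Nusap1 was −0.38, Pclaf −0.63, H2-Eb1 −0.76, Hist1h2ap −0.67, H2-Ab1 −1.15, Mki67 −0.26, Ckb −0.060, H2-Aa −1.27, Cks1b −0.28, Il5 2.17, Slc7a8 1.49, Irs2 0.26, Il13 4.49 and Ccdc184 0.28. Against the neighbours, Dcn was 1.53, Slpi 0.53, Il5 1.75, Irs2 0.80 and Ccdc184 2.21.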
